A study of Mus musculus with 22 samples.

Results

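Neural crest, glial and neuronal genes were followed through RNA-seq libraries of the embryonic mouse trachea. The genes were Sox10, Foxd3, Phox2a, Ret, Erbb3, Tubb3, Elavl4 and Stmn2, 8 of the 26202 gene symbols in the table. They were taken by symbol, with no threshold on their values. At embryonic stage E11.5, whole tracheas, 5 pooled per sample, of control Wnt5a f/f embryos (5 libraries) were compared with Dermo1Cre; Wnt5a f/f mutants (4 libraries), in which a Cre active in the mesenchyme deletes Wnt5a. At E13.5, tracheas carrying the smooth muscle reporter γSMAeGFP were sorted into EpCAM+ epithelium, γSMAeGFP+ muscle and cells negative for both, the chondroblast gate. The reporter was shared by all E13.5 groups. Each control gate had 2 libraries, from an earlier and a later date carried in the column names. The labels list Bmp4 f/f; γSMAeGFP and Notum 300/300; γSMAeGFP embryos among these controls, and the columns do not say which library came from which. Double negative cells of Notum 150/150; γSMAeGFP mutants had 3 libraries, all of the later date. The paper's methods describe this gate as a chondroblast-enriched population, collected only by the lack of EpCAM and GFP.

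Levels are given in CPM, a gene's counts relative to its library's total count, with the totals scaled by TMM over the 18 libraries. Total counts ran from 6880665 (control 16) to 21678183 per library, and the other E11.5 libraries had at least 14566859. A floor of 3 counts corresponded to 0.138 to 0.436 CPM before scaling. Libraries at E11.5 are called by the number in their column names (control 7, mutant 17), and the Notum mutants by the letters A, B and C. Wnt5a itself overlapped between controls (95.9 ± 39.0 CPM, SD, n = 5) and libraries labelled mutant (85.0 ± 33.2, n = 4), and so did Notum between control and mutant double negative cells (49.97 ± 51.1, n = 2, and 27.8 ± 12.1, n = 3), so the transcript levels alone did not check the genotypes. The summed epithelial markers were 3265 and 3884 CPM in the EpCAM+ libraries and at most 45.4 CPM in the other sorted libraries. The column name of the earlier EpCAM+ library leaves the sign of GFP open, and its smooth muscle markers summed to 9.15 CPM. That of Notum mutant C does so too, and its smooth muscle markers summed to 95.5 CPM, against 94.9 and 73.1 CPM in A and B. The muscle library of the earlier date also held skeletal muscle markers (643 CPM against 65.6 CPM in the later muscle library), and the earlier double negative library held 65915 CPM of red cell genes against 5357 CPM in the later.

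The glia of the tracheal nerves and the parasympathetic neurons of the tracheal ganglia come from neural crest cells, which migrate along the vagus nerve. Migrating crest cells and glial precursors express the transcription factors Sox10 and Foxd3 and depend on Erbb3, the receptor through which neuregulin acts on Schwann cell precursors. Cells that enter the autonomic neuronal lineage turn on the homeodomain factor Phox2a and the GDNF receptor Ret. Differentiating neurons then express the neuronal tubulin Tubb3, the RNA-binding protein Elavl4 (HuD) and the microtubule regulator Stmn2 of growing axons. Erbb3 and Ret are also used outside the nervous system, Erbb3 in many epithelia.

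In GENCODE M21 (GRCm38, the mm10 assembly), Sox10 lies at chr15:79154908-79165240 on the minus strand, Foxd3 at chr4:99656299-99658622 on the plus strand, Erbb3 at chr10:128567523-128589652 on the minus strand and Ret at chr6:118151745-118197718 on the minus strand. Phox2a lies at chr7:101818313-101822726 on the plus strand, and its end overlaps Inppl1, a gene of the opposite strand, by 95 bases. Tubb3 lies at chr8:123411424-123422015 (plus), within the span of the predicted gene Gm20388 on the same strand, Elavl4 at chr4:110203722-110351909 (minus) and Stmn2 at chr3:8509360-8561606 (plus). Whether reads were counted by strand is not given in the sources used here. Of the 50-base stretches of the transcripts, 2.59% for Foxd3 (mainly Gm23366 and Foxd4), 2.32% for Phox2a (Inppl1) and 0.893% for Stmn2 also occurred in transcripts of other genes on either strand, and none did for the other 5 genes.

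RefSeq promoter windows (GRCm38.p6, 250 bases before a start) were at hand for 4 of the 8 genes: Elavl4 with 4 starts, and Foxd3, Phox2a and Tubb3. They are shown because Elavl4 and Tubb3 each had a window with AGCACC, the core of the element bound by the neuronal repressor REST, searched on both strands. Both genes were highest in mutant 17 below, as were Stmn2 and Ret, which had no window, and a link to those levels was not tested. The hexamer AGCACC stood in 13.4% of the 32851 mouse windows of this length, and in none of the Foxd3 and Phox2a windows. It was also absent from the Elavl4 windows at chr4:110351912-110352161, before the start of the longest gene span, and chr4:110286835-110287084. Its copy in the overlapping window at chr4:110287512-110287761 is the one shown here. The hexamer is shown in capitals, first in the whole window before an inner start of Elavl4 (chr4:110287528-110287777, minus strand), which lies inside the longest gene span and before the first exon of shorter transcripts. It is then shown in 30 bases of Tubb3 (chr8:123411420-123411449, plus strand), where it lies on the opposite strand and reads GGTGCT.
Elavl4: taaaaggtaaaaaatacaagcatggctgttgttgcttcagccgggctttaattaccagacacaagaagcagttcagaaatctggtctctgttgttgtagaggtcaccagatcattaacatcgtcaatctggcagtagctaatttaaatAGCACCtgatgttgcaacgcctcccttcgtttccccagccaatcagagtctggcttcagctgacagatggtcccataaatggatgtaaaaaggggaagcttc
Tubb3: gatctcggtgccGGTGCTgatgctgcagag
The hexamer stood 102 bases before the Elavl4 start and 121 bases before the RefSeq start of Tubb3, which GENCODE places further upstream, so that the Tubb3 stretch falls at the edge of the annotated gene. ACAAAG, a core that SOX factors bind, was in none of the 7 windows of these 4 genes and in 16.5% of all windows, and CANNTG, the E-box, was in 66.2% of all windows. These are matches of letters, not measured binding.

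The first comparison asked whether neural transcripts differ when Wnt5a is deleted from the tracheal mesenchyme at E11.5. None of the 8 genes separated mutants from controls. The levels also varied between libraries of the same group: the neuronal genes were low in control 7 and mutant 7 and very high in mutant 17, while the glial genes were not raised in mutant 17. Without mutant 17, all 6 of these genes that could be tested had a lower fitted value in the mutants (median log2 fold change -0.68). In bulk tissue, fewer cells of a type and less RNA per cell cannot be told apart.

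Sox10, the crest and glial factor, stood at 13.6 CPM in control 7, 49.2 in control 13, 22.9 in control 16, 44.5 in control 17 and 19.9 in control 18. In the libraries labelled mutant it was 16.4 (mutant 7), 18.3 (mutant 13), 13.9 (mutant 17) and 31.1 CPM (mutant 18). Controls 13 and 17 were above every mutant, and the other 3 controls lay within or just below the range of the mutants. Erbb3, the neuregulin receptor, was likewise highest in controls 13 and 17 and lowest in control 7, with 33.3, 98.4, 53.5, 87.3 and 54.3 CPM in controls 7, 13, 16, 17 and 18. Its mutant values were 33.7, 59.8, 23.1 and 72.4 CPM in mutants 7, 13, 17 and 18, so that mutant 17 was the lowest of the 9 libraries. Foxd3, a factor of early crest, was at 0.335 to 1.45 CPM in controls and 0.159 to 0.936 CPM in mutants, that is at 3 to 23 counts per library, and the groups overlapped.

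Tubb3, the neuronal tubulin, was 18.3 CPM in control 7 and 54.3 to 74.5 CPM in the other 4 controls. Its mutant values were 7.87 (mutant 7), 33.4 (mutant 13), 217 (mutant 17) and 28.3 CPM (mutant 18). Mutant 17 was thus 6.51 times the next mutant, while the other 3 mutants lay below the 4 higher controls. Stmn2, the growing-axon gene, was 4.29, 23.6, 24.0, 31.9 and 24.3 CPM in controls 7, 13, 16, 17 and 18, and 8.61, 34.6, 130 and 16.9 CPM in mutants 7, 13, 17 and 18. Elavl4 was 6.53, 20.3, 28.3, 21.3 and 22.9 CPM in these controls and 5.69, 14.8, 42.0 and 13.3 CPM in these mutants. All of these neuronal genes were highest in mutant 17, and number 7 was the lowest of its own group in each.

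Ret, the GDNF receptor, was 5.10, 8.43, 6.51, 11.7 and 8.77 CPM in controls 7, 13, 16, 17 and 18, and 2.92, 3.63, 14.4 and 4.39 CPM in mutants 7, 13, 17 and 18. Mutants 7, 13 and 18 were below every control and mutant 17 above them all. Phox2a, the autonomic neuron factor, was at 0 counts in controls 7 and 13 and reached no more than 0.579 CPM in any E11.5 library.

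**Figure D1:**
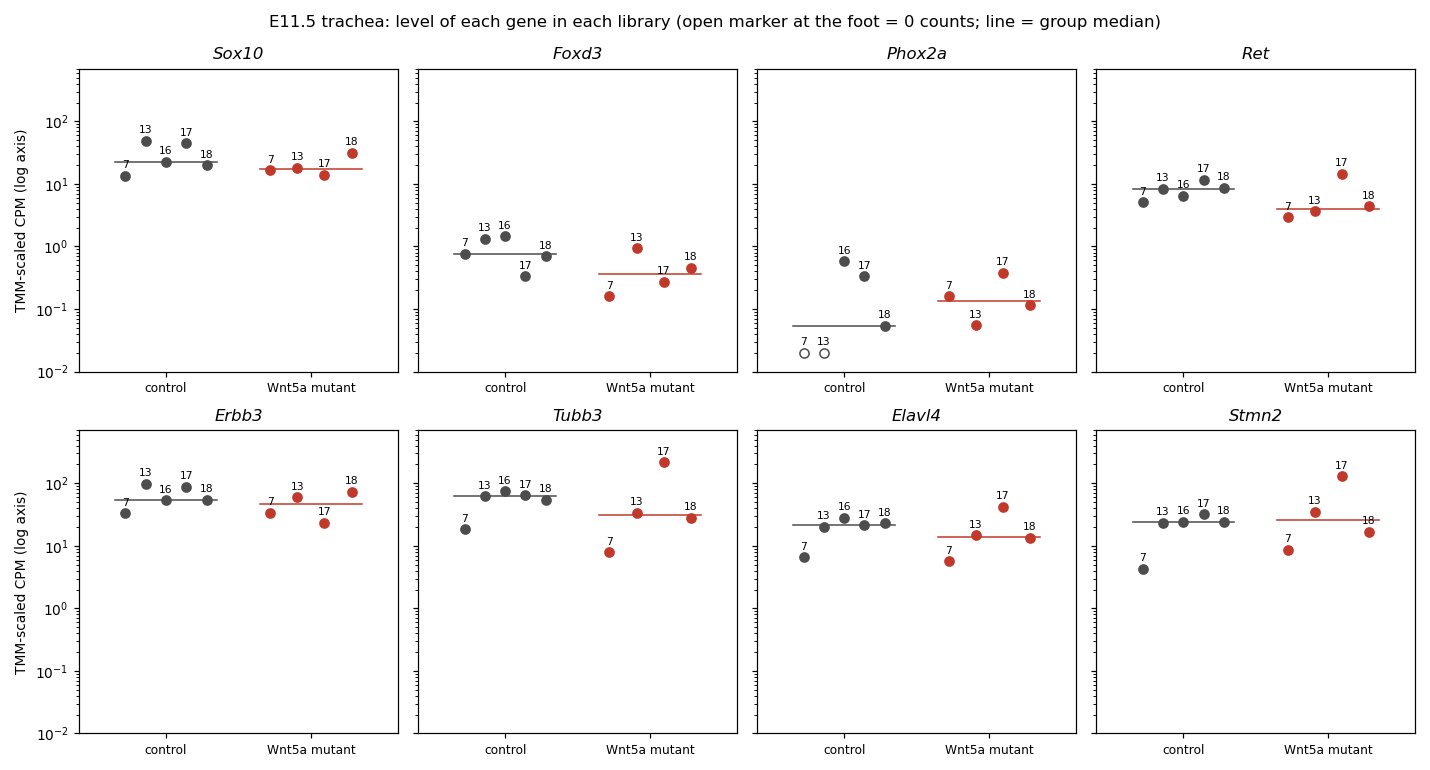
Level of each gene in each E11.5 library, as TMM-scaled CPM on a log axis, for 5 control (grey) and 4 Wnt5a mutant (red) libraries with their numbers and the group median as a line. Tubb3, Elavl4, Stmn2 and Ret are highest in mutant 17 (217, 42.0, 130 and 14.4 CPM), Sox10 and Erbb3 are not, and libraries numbered 7 are low in both groups.

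Of the 8 genes, 6 passed the filter (1 CPM or more in over 50% of any group's libraries), Foxd3 and Phox2a falling under it. By edgeR's quasi-likelihood test none of the 6 had an adjusted p under 0.05, in a comparison where 0.0136% of 14663 genes did (the self-test of this design recovered 159 of 200 genes changed 4-fold). None passed the study's thresholds either (unadjusted p under 0.05 and a fold change over 1.5), which 3.72% of all genes did. The log2 fold changes of mutant over control were -0.63 ± 0.39 (SE) for Sox10, -0.50 ± 0.38 for Erbb3, -0.39 ± 0.47 for Ret, -0.11 ± 0.53 for Elavl4, 0.35 ± 0.75 for Tubb3 and 1.09 ± 0.72 for Stmn2, each with an adjusted p of 0.9995 by edgeR. Tubb3 and Stmn2 changed sign without mutant 17, where Tubb3 was -1.28 ± 0.52 and Ret -1.19 ± 0.32, both past the study's thresholds with an adjusted p of 0.726 by edgeR, while Stmn2 and Elavl4 were at -0.15 and -0.86. Sox10 passed the study's thresholds without control 7 (-0.82 ± 0.34) and without mutant 18 (-0.92 ± 0.41), and Stmn2 without mutant 7 (1.47 ± 0.66), none with an adjusted p under 0.05 by edgeR.

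Controls and mutants share the numbers 7, 13, 17 and 18. Within these pairs the mutant was below its control in 4 of 4 pairs for Foxd3 (at 3 to 23 counts a library), in 3 of 4 for Ret, Tubb3 and Elavl4, in 2 of 4 for Sox10 and Erbb3, and in 1 of 4 for Stmn2. Phox2a was higher in the mutant in 4 of 4 pairs, at 0 to 7 counts a library. The exception was pair 17 for Ret, Tubb3 and Elavl4, where the mutant was at 1.23, 3.38 and 1.97 times the control. In the same pair Sox10 was at 0.313 and Erbb3 at 0.265 times the control. This pairing is unsure, because over all genes mutant 17 did not correlate best with the control of its own number. With the number as a replicate block, Ret passed the study's thresholds (log2 fold change -0.67 ± 0.29, adjusted p = 0.960 by edgeR), and no other of these genes did, while Tubb3 changed sign (-0.37 ± 0.44). Control 16, which has no partner, was left out of that fit.

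The wider neural gene lists were described by their counts, and no test compares one list with another. Here and below, the share of all genes with a higher or lower fitted value was not computed. Over all genes 3.72% passed the study's thresholds in this comparison, in either direction. Of 17 neural crest and glial genes, 13 were tested and all 13 had a lower fitted value in the mutants, with a median log2 fold change of -0.46 beside -0.02 over all genes tested. Only Sox8, a relative of Sox10, passed the study's thresholds (26.4 ± 9.29 CPM in controls, 15.7 ± 5.07 in mutants, SD, log2 fold change -0.79 ± 0.35), and none had an adjusted p under 0.05. Of 28 pan-neuronal genes, 27 were tested, 20 had a higher fitted value and 7 a lower one (median 0.20), and only Dcx, a microtubule protein of migrating neurons, passed the study's thresholds (10.1 ± 3.25 against 18.4 ± 6.01 CPM). The direction of the pan-neuronal list rested on mutant 17. Without that library, a setting added after seeing the data, 7 of 27 pan-neuronal genes were higher and 20 lower (median -0.74), and of the 13 crest and glial genes 2 were higher and 11 lower (median -0.67), beside a median of 0.00 over all genes. Without control 7, mutant 7 and mutant 17 the pan-neuronal median was -0.73 and the crest and glial median -0.59. The autonomic median below also changed sign without mutant 17, from 0.51 to -0.15, with 4 of 9 higher, and the 12 transmitter genes went from a median of 0.02 to -0.91. Among autonomic neuron factors 5 of 9 were higher and Hoxb5 passed the study's thresholds (12.8 ± 3.86 against 23.7 ± 7.88 CPM). Among neurotrophic and guidance receptors Ntrk2, the BDNF receptor, passed them upward (10.7 ± 4.18 against 25.5 ± 8.76 CPM, log2 fold change 1.22 ± 0.33, adjusted p = 0.927 by edgeR) with no overlap between groups, and Erbb4, a relative of Erbb3, passed them downward (3.41 ± 2.14 against 1.17 ± 0.256 CPM). Among ligands only the neurotrophin Bdnf did (3.99 ± 0.898 against 1.78 ± 0.883 CPM, 8 tested), and among transmitter genes Sst, which encodes somatostatin, and Ddc, which makes monoamines, did so in opposite directions (0.629 ± 0.612 against 7.99 ± 7.93 CPM, and 47.6 ± 17.8 against 24.3 ± 8.88 CPM). Of 7 neural tube and placode genes tested 5 were higher (median 0.79), and 4 passed the study's thresholds upward, among them Eya2 (1.97 ± 1.20 against 4.91 ± 2.18 CPM). Skeletal muscle markers were also higher in the mutants (103 to 141 CPM in sum, against 40.7 to 95.0 CPM in controls), and their part in these values was not tested.

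Mutant 17 held the highest level among the 9 libraries for 4 of the 8 genes, for 20 of the 28 pan-neuronal genes and for none of the 17 crest and glial genes. The share of all genes highest in this library was not computed, so these counts have no background beside them. The neurofilament genes Nefl and Nefm were 317 and 283 CPM there, against 13.8 to 72.2 and 13.6 to 96.6 CPM in the other E11.5 libraries. The peripheral neuron filament Prph was 46.4 CPM, the synaptic Snap25 33.6 CPM, the glutamate transporter Slc17a6 14.2 CPM and P2rx3, an ATP receptor of sensory neurons, 15.7 CPM, each above every other library. Epithelial markers were also highest in this library (715 CPM in sum, against 244 to 423 CPM elsewhere at E11.5), its chondroblast markers were lowest (195 CPM against 211 to 907 CPM), and its red cell and endothelial sums were 9743 and 81.2 CPM. The part of these tissues in the neuronal values was not tested.

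Control 7 and mutant 7 stood at the other end. Control 7 held the lowest level of 17 of the 28 pan-neuronal genes and mutant 7 the lowest of 8 of the 17 crest and glial genes. The shares of all genes lowest in these libraries were not computed either. The endothelin receptor Ednrb, which enteric and glial precursors express, was 57.1 and 47.5 CPM in these libraries against 155 to 325 CPM in the other 7. The transcription factor Isl1 was instead highest in them (148 and 170 CPM, against 47.2 to 121 CPM), as was Gata3 in mutant 7 (48.1 CPM). Their chondroblast markers were the 2 highest sums of the 9 libraries (712 and 907 CPM).

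A ratio of neuronal to glial gene counts within a library does not depend on the scaling between libraries. Tubb3 over Sox10 was 1.35, 1.26, 3.26, 1.44 and 2.73 in controls 7, 13, 16, 17 and 18, and 0.479, 1.83, 15.6 and 0.908 in mutants 7, 13, 17 and 18. Stmn2 over Sox10 was 0.316 to 1.89 in the 8 E11.5 libraries other than mutant 17 and 9.32 in mutant 17. Erbb3 over Sox10 lay between 1.66 and 3.27 in all 9 libraries. The ratio of the glial pair thus covered a smaller range than the ratios with Tubb3 or Stmn2.

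**Figure D2:**
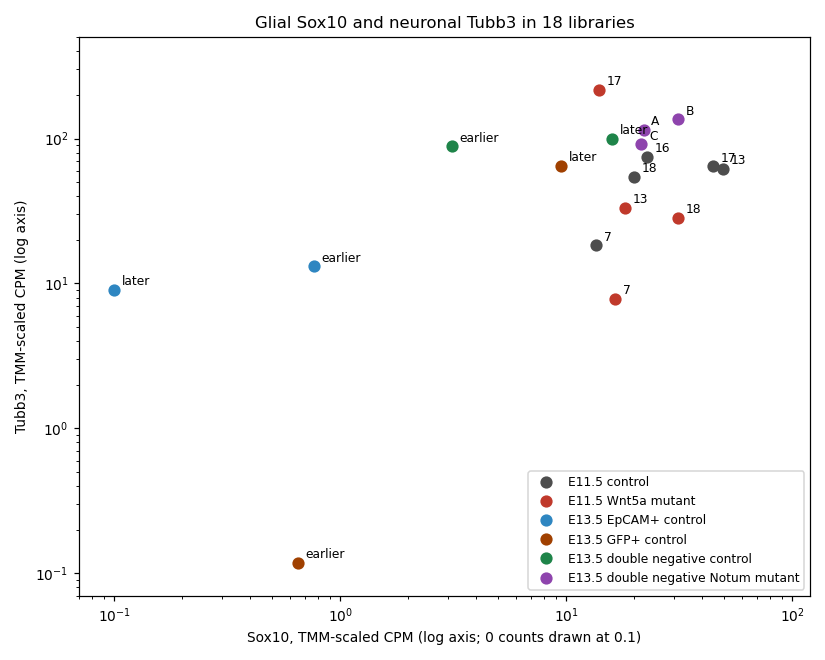
Tubb3 against Sox10 in 18 libraries, both as TMM-scaled CPM on log axes, coloured by group and labelled by number, date or letter, with a count of 0 drawn at 0.1. Mutant 17 combines 217 CPM of Tubb3 with 13.9 CPM of Sox10, and the earlier muscle library has 0.118 CPM of Tubb3.

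The second set of comparisons asked which sort gate at E13.5 held the neural transcripts. On both dates the double negative gate, meant to enrich chondroblasts, had the highest level of Sox10, Tubb3, Elavl4 and Stmn2, and the EpCAM+ gate had the highest level of Erbb3 and Ret. The neuronal genes were not confined to the double negative cells, because on the later date they were also counted in muscle and, at lower levels for Tubb3, in epithelium. Foxd3 was at 0 or 1 count in all 6 control libraries and is not compared.

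Tubb3 was 88.1 and 99.8 CPM in double negative cells (earlier and later date), 13.2 and 9.02 CPM in epithelium, and 0.118 and 64.7 CPM in muscle. Stmn2 was 61.2 and 110 CPM in double negative cells, 4.26 and 56.4 CPM in epithelium, and 2.96 and 48.2 CPM in muscle. Elavl4 was 31.2 and 54.3 CPM in double negative cells, 5.17 and 29.7 CPM in epithelium, and 7.70 and 15.8 CPM in muscle. Of the CPM summed over the 3 gates on a date, double negative cells thus held 86.9% and 57.5% of Tubb3, 89.4% and 51.2% of Stmn2 and 70.8% and 54.4% of Elavl4 on the earlier and later dates. Each gate has equal weight in this sum, whatever its number of cells, so these are not shares of the whole trachea. The gates differed more on the earlier date, where muscle held 0.117% of the Tubb3 sum against 37.3% on the later.

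Sox10 was 3.12 and 15.99 CPM in double negative cells, 0.652 and 9.47 CPM in muscle, and 0.767 and 0 CPM in epithelium. The later epithelial library held no Sox10 count, so that double negative cells of that date were at least 81.5-fold higher, taking 3 counts as the floor of the epithelial library. On the earlier date, with 16 counts in epithelium, double negative cells were 4.07-fold higher. Phox2a was 0.562 and 4.19 CPM in double negative cells, 0.119 and 4.73 CPM in muscle, and 0 and 0.262 CPM in epithelium. Muscle of the later date therefore matched double negative cells in Phox2a (75 and 56 counts), against 2 counts in the earlier muscle library. In muscle Sox10 and Stmn2 were 14.5 and 16.3 times higher on the later date than on the earlier, against 5.13 and 1.79 times in double negative cells, and Tubb3 went from 2 to 1025 counts. The other genes of the muscle gate differed less between dates, Elavl4 being 2.05 times higher on the later date (130 and 250 counts) and Erbb3 and Ret at 0.750 and 0.877 of the earlier level. The later muscle library also held more red cell transcripts (2215 CPM against 10.5 CPM) and fewer skeletal muscle ones, and the part of these in the neural values was not tested.

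Erbb3 was 136 and 90.1 CPM in epithelium, 36.7 and 27.5 CPM in muscle and 20.1 and 24.6 CPM in double negative cells. Ret was 15.2 and 13.7 CPM in epithelium, 1.01 and 0.883 CPM in muscle, and 3.73 and 0.0747 CPM in double negative cells. In epithelium these receptors stood apart from Sox10 and Phox2a, which were at or near 0 there. In double negative cells Ret differed between dates, with 73 counts on the earlier and 1 count on the later.

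**Figure D3:**
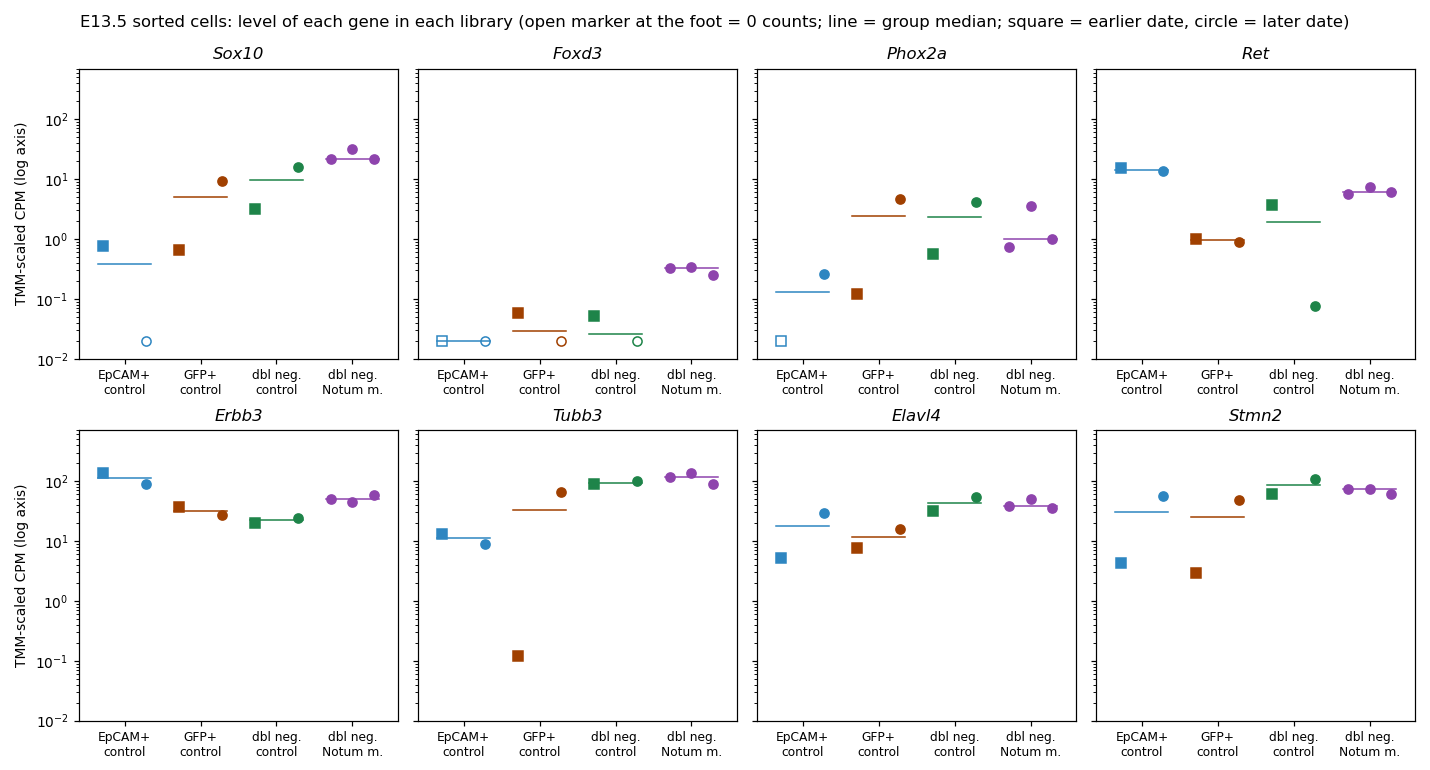
Level of each gene in each E13.5 library, as TMM-scaled CPM on a log axis, for control epithelium, muscle and double negative cells (squares earlier date, circles later date) and Notum mutant double negative cells, with the group median as a line ("dbl neg." for double negative, "Notum m." for the mutants). Erbb3 and Ret are highest in epithelium (90.1 to 136 and 13.7 to 15.2 CPM), and Tubb3, Elavl4 and Stmn2 in double negative cells.

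The 3 control gates were fitted together, and 6 of the 8 genes passed the filter. Between double negative cells and epithelium, Erbb3 was lower by edgeR's test (log2 fold change -2.37 ± 0.38, adjusted p = 0.0314), 1 of 6 genes against a background of 2.74% of 13687 genes. Without the earlier or the later double negative library the adjusted p was 0.189 or 0.165, and with a term for the date it was 0.0519. Leaving out the earlier or later muscle library, which is in neither group of this contrast but in the same fit, gave 0.0609 or 0.0572 for Erbb3 and brought Tubb3 under 0.05 (0.0361 or 0.0470, log2 fold change 3.05 in both). Between epithelium and muscle, Erbb3 (1.83 ± 0.37, adjusted p = 0.0549 by edgeR) passed the study's thresholds alone, which 17.6% of genes did, and no gene had an adjusted p under 0.05, against 3.58% of all genes. Between double negative cells and muscle no gene passed either threshold, against 0.132% and 5.47% of all genes, and the self-test recovered only 27 of 200 genes changed 4-fold here.

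The other fold changes had wide errors. The log2 fold changes of double negative cells over muscle were 1.85 ± 0.92 for Elavl4, 1.73 ± 1.44 for Stmn2, 1.52 ± 1.70 for Tubb3 and 0.91 ± 2.01 for Sox10. Over epithelium they were 1.28 ± 0.91 for Elavl4, 1.48 ± 1.43 for Stmn2, 3.05 ± 1.81 for Tubb3 and 4.56 ± 2.32 for Sox10, with adjusted p from 0.408 to 0.681 by edgeR. Ret was at -2.94 ± 1.70 for double negative cells over epithelium and 3.93 ± 1.78 for epithelium over muscle (adjusted p = 0.473 and 0.310 by edgeR). Tubb3 between epithelium and muscle had no stable direction, at -1.53 ± 1.71 with all libraries and 6.47 ± 0.81 without the later muscle library. Stmn2 and Elavl4 also changed sign there when 1 library was left out (-2.57 to 3.34 and -1.17 to 1.33).

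The pan-neuronal list followed the 3 neuronal genes. Of its 28 genes, all 28 were above 3 counts in some gate on the earlier date and 22 were highest in double negative cells, and of 27 on the later date 15 were. The share of all genes highest in each gate was not computed, so such counts here and below have no background beside them. In the fit 21 of 25 pan-neuronal genes had a higher value in double negative cells than in muscle (median log2 fold change 1.20) and 21 of 25 than in epithelium (median 1.82), beside 0.00 and 0.02 over all genes. Nsg1, a protein of neuronal endosomes, was the pan-neuronal gene with an adjusted p under 0.05 against epithelium (183 ± 1.43 against 38.8 ± 6.66 CPM, SD, log2 fold change 2.22 ± 0.35, adjusted p = 0.0297 by edgeR). Rtn1, a neuronal reticulon, passed the study's thresholds against both muscle and epithelium (45.8 ± 13.1 CPM against 11.04 ± 8.75 and 8.14 ± 2.91). The vesicular acetylcholine transporter Slc18a3 was 5.67 ± 2.31 CPM in double negative cells and at 0 in both epithelial libraries.

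The glial list was divided among the gates. Of its 17 genes, 11 had the same highest gate on both dates, which was double negative cells for 5, muscle for 4 and epithelium for 2. Ednrb was highest in muscle (382 ± 4.18 CPM against 71.0 ± 13.45 in double negative cells, log2 fold change of double negative over muscle -2.45 ± 0.26, adjusted p = 0.0483 by edgeR). The myelin gene Mbp was highest in epithelium (73.3 ± 27.7 CPM, against 18.9 ± 8.33 in double negative cells and 0.336 ± 0.0283 in muscle), and the glial lipid carrier Fabp7 was 11.8 ± 5.57 CPM in double negative cells and 0.0240 ± 0.0339 CPM in epithelium. Among ligands Edn3, which binds Ednrb, was 58.5 ± 9.16 CPM in epithelium and 17.5 ± 0.175 CPM in muscle, and the neurotrophin Ntf3 was 41.5 ± 2.53 CPM in muscle and 6.24 ± 2.16 CPM in double negative cells, both past the study's thresholds.

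Some genes of the receptor and the neural tube and placode lists were, like Erbb3 and Ret, highest in epithelium. Of 11 receptors, 5 had the same highest gate on both dates, 1 of them epithelium, 2 muscle and 2 double negative cells. Of 15 neural tube and placode genes 7 had, 4 of them epithelium, 1 muscle and 2 double negative cells. Gfra1, the co-receptor through which GDNF reaches Ret, was 300 and 470 CPM in epithelium and 85.6 to 144 CPM in the other gates. Sox2 was 30.9 and 47.5 CPM in epithelium and P2rx2 20.2 and 19.9 CPM, each under 2 CPM in the other control gates at E13.5. Nrp1 and Ntrk2 were lower in epithelium than in double negative cells with an adjusted p under 0.05 (log2 fold change of double negative over epithelium 3.39 ± 0.41 and 2.74 ± 0.41, adjusted p = 0.0144 and 0.0266 by edgeR). Isl1 was highest in epithelium (111 ± 2.85 CPM, against 56.1 ± 1.96 in double negative cells and 40.5 ± 13.7 in muscle).

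The neural transcripts of the later epithelial library were of an uneven kind, and more of the listed genes were at or under 3 counts in it. Of 28 pan-neuronal genes 10 were, against 1 in the earlier epithelial library, and of 11 neurotrophic receptors 6 were, against 0. Autonomic factors and ligands did not differ so, with 5 and 4 genes in each library. The part of this in the values below was not tested. The later epithelial library held 56.4 CPM of Stmn2, 29.7 CPM of Elavl4, 32.1 CPM of the synaptic vesicle gene Syt1 and 33.6 CPM of Gap43, a growth cone protein. It held 9.02 CPM of Tubb3, 0.0654 CPM of Nefm and no Sox10. Stmn2 over Tubb3 was 6.25 there, against 0.234 to 1.10 in the other libraries with more than 3 counts of Tubb3. The 6 table entries of Elavl4 also differed in it. Entry 1 held 59.2% and 26.2% of the Elavl4 counts in the later and earlier double negative libraries and 35.6% and 40.9% in muscle, but under 1 count in both epithelial libraries. Entry 4 held 67.5% and 72.9% of the epithelial Elavl4 counts (later and earlier). The table names these entries by symbol alone, and estimated counts divide reads between them, so which transcripts they are was not settled. Ret has 2 entries, and entry 1 held 99.2% and 100% of its epithelial counts (earlier and later).

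The third comparison asked whether double negative cells of Notum mutants differ from control double negative cells. Erbb3, Sox10 and Ret were above both controls in every mutant library, the neuronal genes overlapped, and no gene had an adjusted p under 0.05. Erbb3 was 51.0, 45.4 and 58.1 CPM in mutants A, B and C against 20.1 and 24.6 CPM in controls. Sox10 was 21.996, 31.2 and 21.5 CPM against 3.12 (earlier) and 15.99 CPM (later), and Ret 5.71, 7.41 and 6.17 CPM against 3.73 and 0.0747 CPM. For these 3 genes every mutant was above both controls, 3 of 7 tested, where 17.2% of all genes were higher without overlap. The 3 mutant libraries may not be independent, because B and C share a number in their column names. Foxd3 was 0.325, 0.344 and 0.247 CPM in the mutants, against 1 and 0 counts in the controls.

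Tubb3 was 115, 136 and 91.0 CPM in mutants A, B and C, against 88.1 and 99.8 CPM in controls. Stmn2 was 73.9, 74.5 and 60.5 CPM against 61.2 and 110 CPM, and Elavl4 39.0, 49.8 and 36.0 CPM against 31.2 and 54.3 CPM. For each of these neuronal genes at least 1 mutant lay between the 2 controls. Phox2a was 0.743, 3.54 and 0.987 CPM in the mutants, within the span of the controls (0.562 and 4.19 CPM).

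By edgeR none of the 7 genes tested had an adjusted p under 0.05, where 0% of 14120 genes did (1762 genes had an unadjusted p under 0.05, and DESeq2 called 1 of the 7, Erbb3, at an adjusted p of 0.000144). Erbb3 passed the study's thresholds (log2 fold change 1.21 ± 0.21, adjusted p = 0.200 by edgeR), 1 of 7, where 8.41% of all genes did. The other values were 1.39 ± 0.67 for Sox10, 1.76 ± 1.19 for Ret, 0.29 ± 0.19 for Tubb3, -0.03 ± 0.29 for Elavl4, -0.29 ± 0.27 for Stmn2 and -0.43 ± 1.12 for Phox2a. All mutants were of the later date, and against the later control alone, a lone library assumed to vary as the mutants do, Ret was at 6.30 ± 0.82, Erbb3 at 1.06 ± 0.22 and Stmn2 at -0.66 ± 0.16 (adjusted p = 0.00910, 0.0246 and 0.0397 by edgeR), the first against 1 count in that control. Against the earlier control alone Sox10 was at 3.00 ± 0.38 (adjusted p = 0.0287 by edgeR) and Erbb3 at 1.36 ± 0.22 (adjusted p = 0.0599). The values of Sox10, Ret and Stmn2 therefore differed widely with the control kept, while the fold change of Erbb3 stayed between 1.06 and 1.36 when any library was left out.

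The autonomic and transmitter lists also lay higher. All 8 autonomic neuron factors tested had a higher fitted value in the Notum mutants (median log2 fold change 0.99, against 0.02 over all genes). Of these, 3 passed the study's thresholds, which 8.41% of all genes did in either direction. Among them were Isl1 (56.1 ± 1.96 against 113 ± 11.7 CPM, log2 fold change 1.02 ± 0.14, adjusted p = 0.135 by edgeR) and Gata3 (8.26 ± 2.80 against 18.1 ± 6.27 CPM). Of 9 transmitter genes 7 were higher (median 1.46), and Gal, which encodes galanin, Dbh, which makes noradrenaline, and Ddc passed the study's thresholds (3.95 ± 2.34 against 46.8 ± 12.5, 4.17 ± 0.764 against 19.5 ± 6.84 and 8.31 ± 0.451 against 22.7 ± 7.82 CPM). Of 15 crest and glial genes 11 were higher (median 0.58), with Dhh, Cdh19 and Ednrb past the study's thresholds, and of 27 pan-neuronal genes 20 were (median 0.23), with Nefm and Ncam1 past them (21.7 ± 7.14 against 50.2 ± 11.7 and 121 ± 11.4 against 182 ± 21.2 CPM). The co-receptor Gfra1 was higher (115 ± 41.0 against 193 ± 9.60 CPM), and Dcc and Ntrk2, receptors for netrin and BDNF, were lower (9.63 ± 1.18 against 3.33 ± 1.44 and 127 ± 37.5 against 77.1 ± 10.3 CPM). Macrophage markers were also higher in the mutants (171 to 283 CPM against 110 and 136 CPM), as were chondroblast markers (2933 to 3843 CPM against 2288 and 2423 CPM), and their part in these values was not tested.

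**Figure D4:**
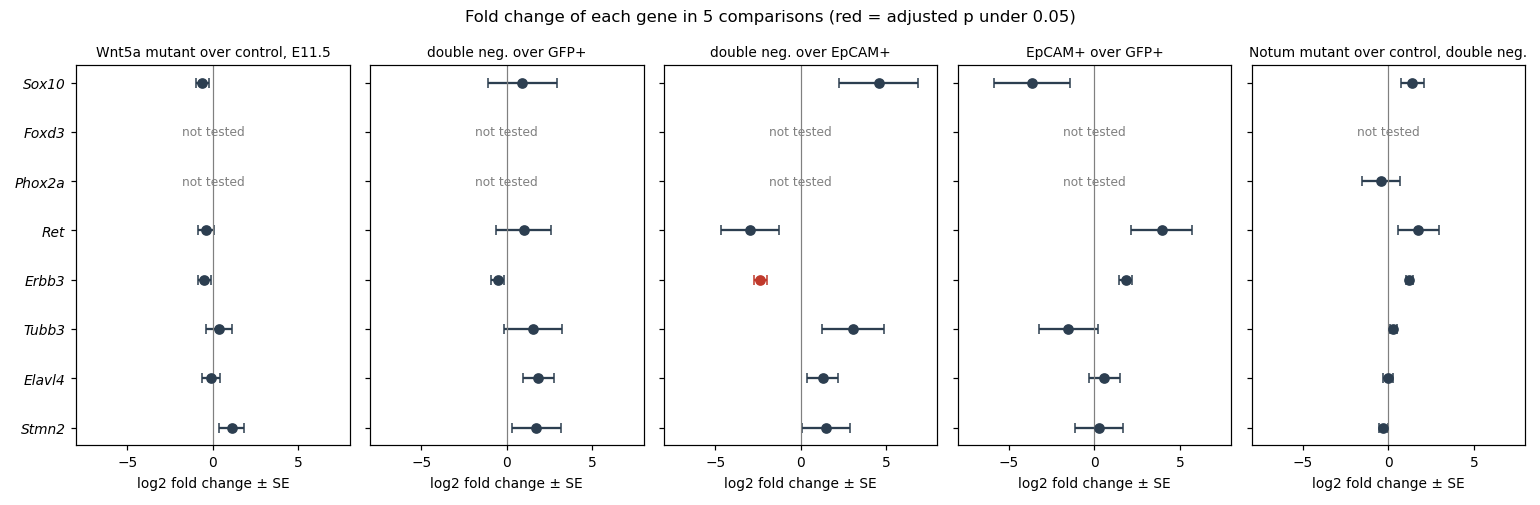
Fitted log2 fold change with its SE (x axis) for each of the 8 genes (y axis) in 5 comparisons by edgeR, with red for an adjusted p under 0.05 and "not tested" for genes under the filter. Erbb3 in double negative cells over epithelium (-2.37 ± 0.38) is the only red point.

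The 8 genes did not vary as a block. Pearson's r of each gene's log2 level with the mean of the 8 standardised genes, a mean of which each is part, was 0.88 for Tubb3, 0.76 for Elavl4, 0.74 for Stmn2 and 0.64 for Sox10 over the 18 libraries, and 0.49, 0.36, 0.35 and 0.13 for Foxd3, Phox2a, Ret and Erbb3. Among 15958 other genes, the patterns most like that mean included those of Chst5 (r = 0.89), Gap43 and Nefl (each 0.87), Stmn3 (0.85), Dusp26 (0.84), Soga3 and Cmtm5 (each 0.83), and Gmfg and Gfra3 (each 0.82). Of these, Gap43, Nefl, Stmn3 and Gfra3 were on the neural lists. Over the 9 E11.5 libraries alone the closest were Phactr1 (0.98) and Insc, AU021092, Upk1b and Rgcc (each 0.97), none of them on these lists. These correlations describe libraries that share stages, gates and dates, and carry no test.

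**Figure D5:**
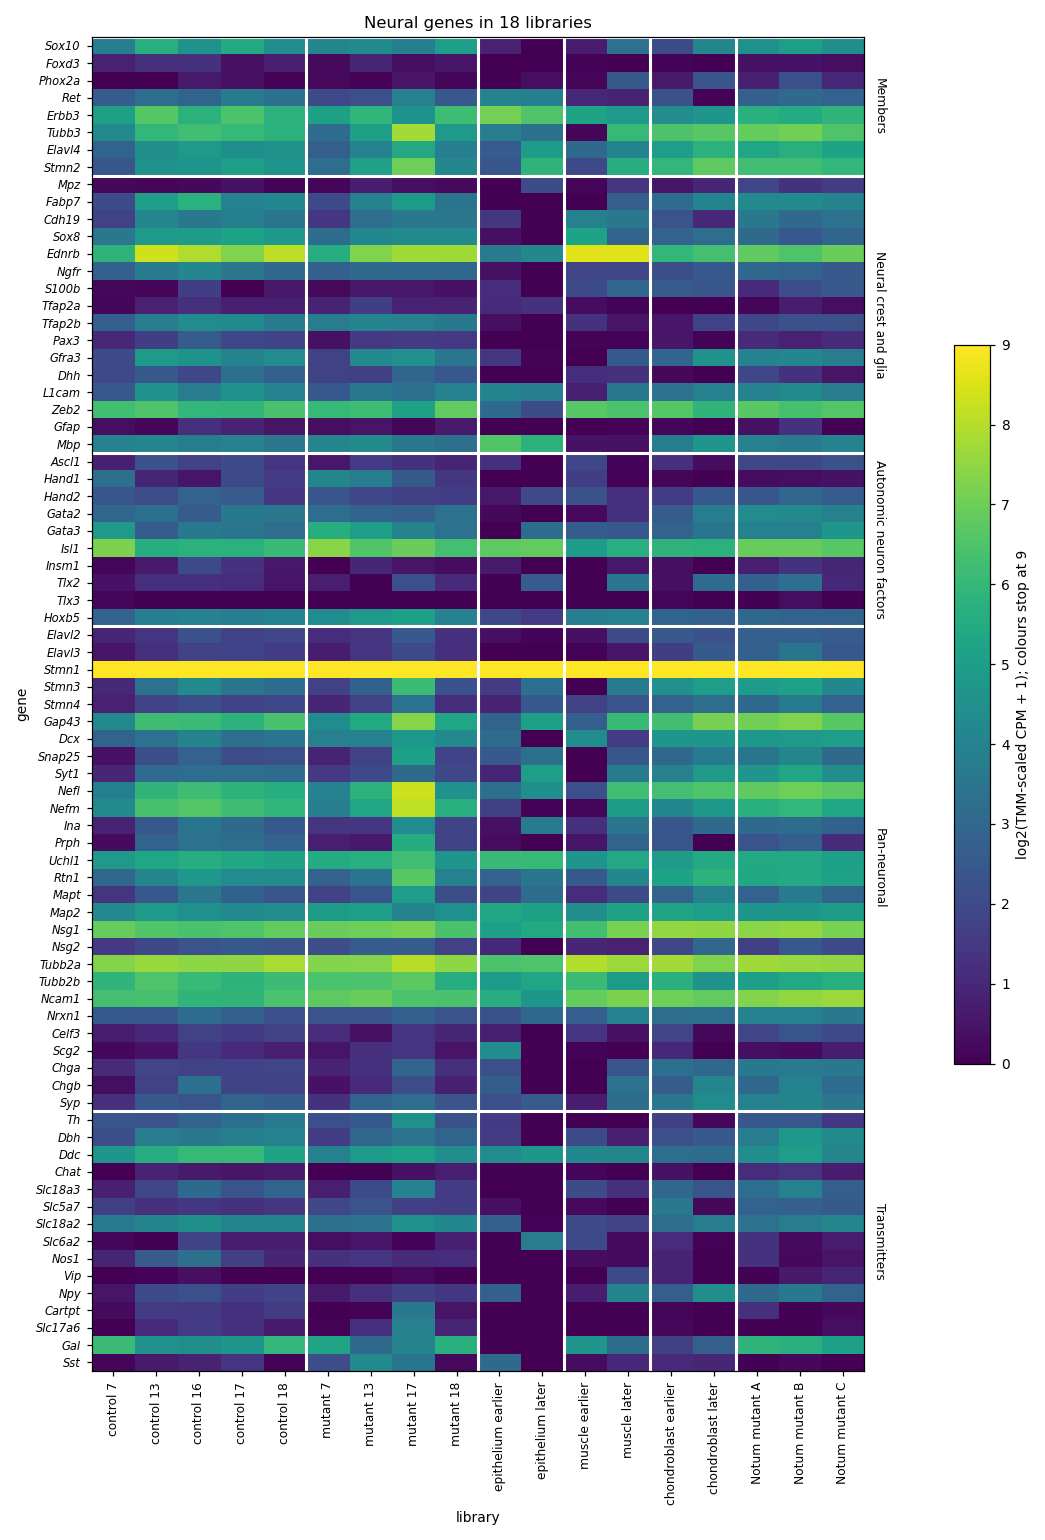
Levels of the 8 genes and of genes of the crest and glial, autonomic, pan-neuronal and transmitter lists (rows) in 18 libraries (columns), as log2(TMM-scaled CPM + 1) with colours stopping at 9. Mutant 17 is brightest along most pan-neuronal rows (Nefl 317 CPM), the libraries numbered 7 are darker, and Mbp, Erbb3 and Ret are brighter in epithelium than in the other gates.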

How the data were processed

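RNA-seq of mouse trachea was analysed from the authors' table of expected counts, estimated counts that need not be whole, deposited per sample without normalization as 47248 entries and 22 columns. The submitters' notes name mm10, Partek and limma, and the paper names DESeq2 and Cufflinks. The aligner, counter and annotation are not given in the sources used here. RNA was amplified with SMART-Seq v4, which adds no molecular identifiers, so floors cover counting error only. Columns were matched to groups by name, leaving out 4 that fit none of the labels. The labels list 3, 3, 3 and 4 samples of the E13.5 groups, of which 2, 2, 2 and 3 had a column.

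Entries of a symbol were summed and rounded. Genes at 1 CPM or more in over 50% of any group's libraries were tested with edgeR 4.0.16 (R 4.3.3, TMM, quasi-likelihood, 2-sided, Benjamini-Hochberg), and the SE is the fold change divided by the square root of F. Fits were E11.5 alone, the 3 control gates together, and double negative cells alone. Replicates are separate samples in the labels, and p-values measure only their spread. Notum mutants B and C, which share a column-name number of unstated meaning, were counted as separate replicates. The biological coefficient of variation was 34.0%, 66.8% and 35.9%. On simulated counts with 200 genes changed 4-fold the test recovered 159, 27 (double negative against muscle) and 133, with 13, 1 and 3 false calls. Alternatives were DESeq2 1.42.0, limma voom 3.58.1, other scalings and filters, leaving out each library, a date term, a replicate block and other samples in the fit.

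Control and mutant libraries of the same number at E11.5 deviated together from their group means (r over genes 0.53, 0.19, 0.14 and 0.10 for 7, 13, 17 and 18). Mutants 7, 13 and 18 correlated best with the control of their own number, and mutant 17 did not. The numbers were taken to pair samples, although their meaning is not stated and the pairing of number 17 is unsure. The genes and lists were chosen with earlier results of these data known. In the lists, genes named are up to 3 per list and comparison with the largest fold change past the study's thresholds, otherwise the 2 of highest mean level; Gfra1, Sox2, Prph, Snap25, Slc17a6, P2rx3, Syt1 and levels named for single libraries were chosen after their values were seen. Protein sequences were not used here, and some genes of the lists are not reported here.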

Additional observations from a re-analysis of the deposited data

Results flagged for a closer look

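In groups of 4 to 10 libraries the highest and lowest library of each of the 8 genes was compared with its nearest neighbour by Dixon's ratio on CPM, 16 groups in all. Chance would pick out about 1 in 20 if levels were normally distributed, which was not checked. The genes share the same libraries, so the 16 groups are not independent. The same library stood apart in both cases found. Tubb3 was 217 CPM in mutant 17, a gap of 0.878 of the range of the 4 mutants, above the 95% critical value for 4 libraries, and Ret was 14.4 CPM in it, a gap of 0.873.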

How the results depend on the processing

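Counts of the 8 genes past a threshold were recomputed under each alternative. At E11.5 the number past the study's thresholds was 0, 1 with the column number as a replicate block, 3 (Ret, Tubb3 and Elavl4, all lower) without control 7, mutant 7 and mutant 17, a setting chosen after seeing the data, and 0 to 2 with each library left out; the number with an adjusted p under 0.05 stayed at 0 in every setting run. The replicate block changed no other call. No paired analysis was possible because the E13.5 columns carry no replicate number of the labels, as far as pairing by number at that stage goes; for the control gates the date in the column names served as a term instead.

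For double negative cells against muscle the adjusted count was 0 and became 1 with no filter; the count at the study's thresholds was 0, 1 with DESeq2, limma voom or the Notum libraries in the fit, 2 with a date term, 3 with no filter, and 0 to 2 with a library left out. Against epithelium the adjusted count was 1, 3 with no filter, 0 with a date term and 0 to 1 with a library left out; at the study's thresholds it was 1, 2 with DESeq2, a date term or the Notum libraries, 4 with no filter, 5 with limma voom and 1 to 2 with a library left out. For epithelium against muscle the adjusted count was 0, 1 with DESeq2, limma voom or the Notum libraries, 2 with no filter and 0 to 1 with a library left out; at the study's thresholds it was 1, 2 with DESeq2, limma voom or the Notum libraries, 3 with no filter and 1 to 2 with a library left out. Tubb3 reversed here, at 6.47 (adjusted p = 0.0401 by edgeR; -2.52 without the earlier muscle library) without the later muscle library, which held nearly all of its muscle counts. For Notum mutants the adjusted count was 0, 1 with DESeq2, 3 against the later control alone and 0 to 3 with a library left out; at the study's thresholds it was 1, 2 with DESeq2, no filter or limma voom, 3 against the later control alone and 1 to 3 with a library left out. Of the fold changes of single genes under the alternatives, 398 kept their direction and side of the threshold, 18 passed it, 5 lost it and 27 changed sign, among them only Tubb3 at 6.47 with an adjusted p under 0.05.

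Beside that, the sign changes were as follows, with the log2 fold change of the full design first. At E11.5 Tubb3 (0.35) was -0.44 with limma voom, -0.37 with the replicate block and -1.10 without control 7, mutant 7 and mutant 17, where Stmn2 (1.09) was -0.062; with each library left out Tubb3 ran from -1.28 to 0.76, Stmn2 from -0.15 to 1.47 and Elavl4 (-0.11) from -0.86 to 0.22. For double negative cells over muscle Ret (0.98) was -0.43 with limma voom and ran from -3.55 to 1.93 with a library left out, and Sox10 (0.91) from -0.73 to 3.85. For epithelium over muscle Tubb3 (-1.53) and Elavl4 (0.57) were 1.96 and -0.018 with limma voom, and with a library left out Elavl4 ran from -1.17 to 1.33 and Stmn2 (0.24) from -2.57 to 3.34. For Notum mutants Phox2a (-0.43) and Elavl4 (-0.03) were 0.096 and 0.082 with limma voom and Elavl4 was 0.041 scaled by library size only; with a library left out Phox2a ran from -1.25 to 1.64, Elavl4 from -0.39 to 0.42 and Stmn2 (-0.29) from -0.66 to 0.19. Apart from the libraries named, the causes were not tested. Precision is limited by 2 libraries per control gate and by the low counts of Foxd3 and Phox2a.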
